A study of Mus musculus with 37 samples.

Results

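The libraries described here come from podocytes of mice with a model of type 2 diabetes at 6 months of age, and they are 7 of the 37 samples of the series. The 3 diabetic libraries were from eNOS-/- db/db mice and the 4 control libraries were from eNOS-/- mice, both on C57BL/6 and both labelled with the same age. Both groups are thus labelled as lacking endothelial nitric oxide synthase (eNOS), so the comparison is between mice of that label with and without the db/db genotype, a mutation of the leptin receptor that causes obesity and diabetes. The members were chosen by their labels alone, and every gene in the tables was examined in them. The labels do not say whether replicates came from separate animals, so the p-values below measure the spread between libraries, which may be partly technical. For the change at 6 months that spread was estimated from 17 libraries of the type 2 model at 3 and 6 months.

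The RNA was labelled TRAP RNA from podocytes of the kidney. Translating ribosome affinity purification (TRAP) pulls down a tagged ribosomal protein, made in one cell type, together with the messenger RNAs on the tagged ribosomes. The name of the deposited table points to a Cre recombinase driven by a promoter active in podocytes. Podocytes are the epithelial cells that wrap the glomerular capillaries. Their interlocking foot processes are joined by the slit diaphragm, and together with the glomerular basement membrane they hold back protein from the urine. They are terminally differentiated and hardly replaced, and their injury and loss accompany diabetic kidney disease, which loss of eNOS is known to worsen in db/db mice.

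The control libraries held between 16916596 and 29486283 counts, and diabetic libraries 1 to 3 held 22331040, 17625244 and 6702120. Diabetic library 3 was thus the shallowest, and on log2 CPM (counts scaled to a common library size) its Pearson correlation across genes with diabetic libraries 1 and 2 was 0.884 and 0.870, against 0.941 between those 2 and 0.950 to 0.978 among controls. The 18S ribosomal RNA gene took 4.19 to 8.93% of counts and mitochondrially encoded genes 0.295 to 1.13%, with overlapping ranges in both groups. The labelled cell type was checked in TRAP RNA of 3-month controls, which are not among the 7 libraries. All 12 podocyte markers examined were more than 4-fold higher there than in the 1 whole-kidney library. Lepr, whose db mutation a count over the whole gene does not show, was at 2.82 to 4.08 CPM in controls and 1.58 to 3.00 in diabetic libraries. Nos3, the gene of eNOS, had counts in all 7 libraries although the labels give both groups as eNOS-/-. Which part of the gene the allele lacks was not stated in the labels, so these counts neither bear out the label nor go against it, and what transcript they come from was not tested. Its values are given with the vascular genes. The summed CPM of the podocyte markers was 32300 to 37380 in controls and 11570, 19260 and 4599 in diabetic libraries 1, 2 and 3. That of proximal tubule markers was 16490 to 19830 in controls and 11380, 7697 and 4871 in the same diabetic libraries. Only in diabetic library 3 was the tubule sum above the podocyte sum. In bulk samples like these, fewer podocytes and less RNA per podocyte cannot be told apart.

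Of 17180 genes with enough counts to test, 1922 (11.2%) were called higher and 2012 (11.7%) lower in diabetic podocytes, 22.9% in all, at an adjusted p under 0.05. Values below are CPM after scaling by TMM factors, log2 changes are diabetic over control with their standard errors (SE), and adjusted p-values are from edgeR's quasi-likelihood test with Benjamini-Hochberg adjustment over all genes tested. In 29.6% of genes the diabetic and the control libraries did not overlap. A change of at least 2-fold was found in 1326 of the higher and 880 of the lower genes, and one of at least 8-fold (3 on the log2 scale) in 253 and 140. Most calls were protein-coding genes (1807 higher and 1898 lower of 14551). Among 478 lincRNA genes 29 were higher and 22 lower, and among 420 antisense genes 24 were higher and 17 lower. Without diabetic library 3 the calls fell to 904 higher and 1028 lower. In a fit of only the 7 libraries at 6 months they were 1315 and 1011. The split between directions depended on the scaling: with library totals in place of TMM factors, 3009 genes were higher and 1013 lower, and the median change of all genes was 0.222 in place of -0.00961. Changes are best read against that shift, and a log2 change smaller than it has no certain sign.

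The genes that define podocytes were lower. All 12 markers were called lower, 11 of them with no overlap between groups, and their median log2 change was -1.63. Without diabetic library 1, 9 of the 12 were called, and 7 in a fit of only the 7 libraries at 6 months. Podxl (chromosome 6, 31519488 to 31563981), the charged sialomucin podocalyxin of the foot process surface, was at 7963, 8816, 10220 and 9055 CPM in control libraries 1 to 4 and 3058, 4476 and 982 in diabetic libraries 1 to 3, a change of -1.67 (SE 0.40, adjusted p = 0.00739). Among the diabetic libraries the level was lowest in library 3 and highest in library 2, and the same order held in Nphs1, Wt1 and Synpo. Wt1 (chromosome 2, 105126529 to 105173616), a transcription factor that podocytes need throughout life, was at 2059, 1557, 2033 and 1860 CPM against 601, 1099 and 173. Its change of -1.59 (SE 0.44, adjusted p = 0.0159) missed the threshold without diabetic library 1 (-1.56, adjusted p = 0.0512). Synpo, which encodes the actin-binding protein synaptopodin, was at 6102 to 7026 CPM in controls and at 2334, 4627 and 839 in diabetic libraries. Its change was -1.34 (SE 0.38, adjusted p = 0.0181), and without diabetic library 1 it was -1.27 (adjusted p = 0.0609). Per gene length, Podxl was at a mean of 1521 FPKM in controls and 553.9 in diabetic libraries, Synpo at 641 and 291.6, and Wt1 at 280 and 107.7.

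**Figure D1:**
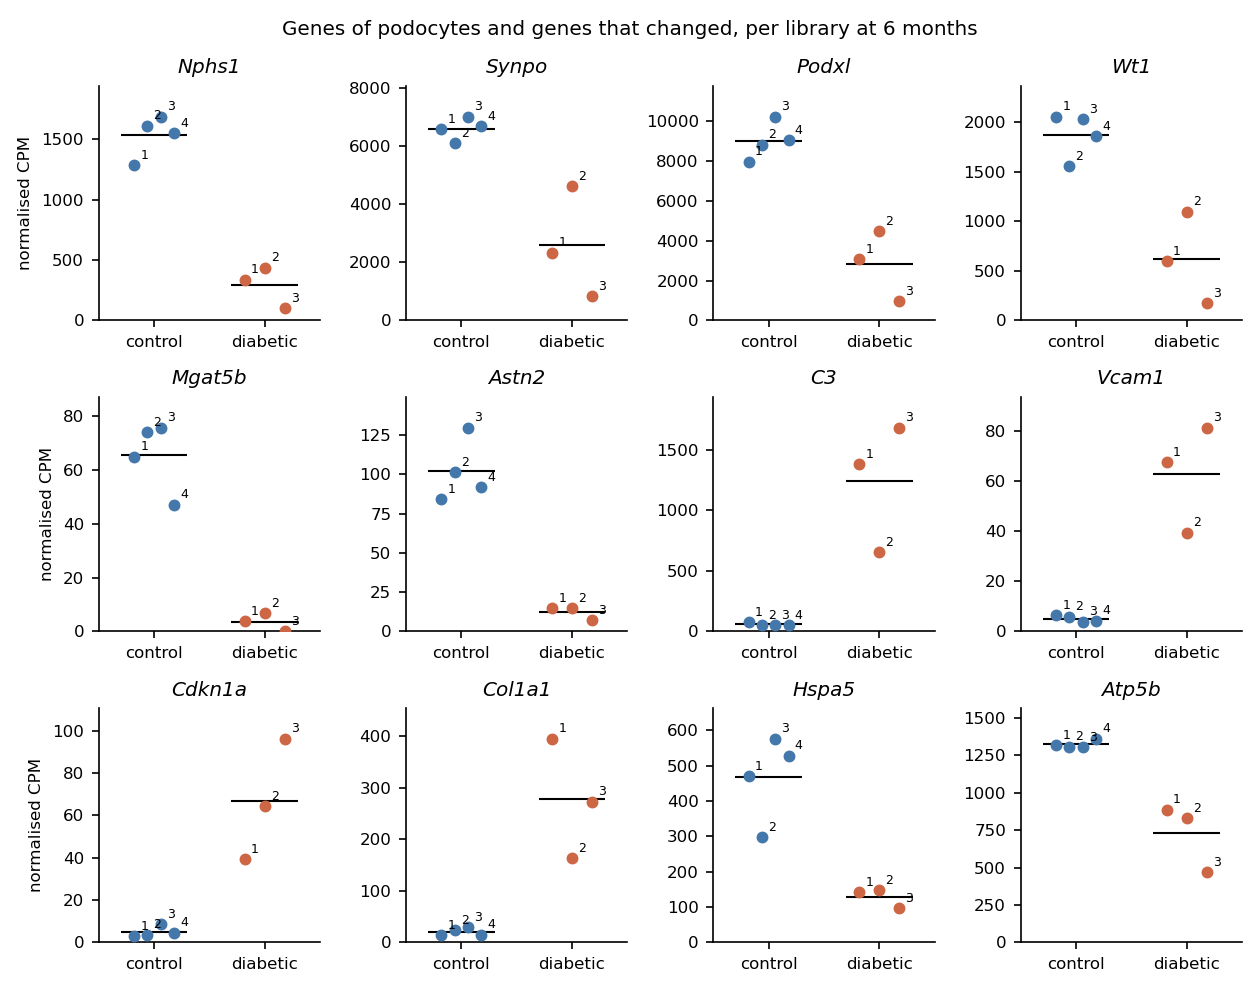
Normalised CPM (vertical axes, from 0) of 12 genes in the 4 control and 3 diabetic libraries at 6 months; each point is a library with its number, and the line is the group mean. Nphs1, Synpo, Podxl, Wt1, Mgat5b, Astn2, Hspa5 and Atp5b lay lower in every diabetic library than in any control, and C3, Vcam1, Cdkn1a and Col1a1 higher.

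The slit diaphragm list held 19 genes, of which 10 fell and 1 rose, against 11.7 and 11.2% of all genes, with a median change of -0.57 where the median of all genes was -0.00961. Without diabetic library 3, 7 were called lower. Nephrin, encoded by Nphs1 (chromosome 7, 30458315 to 30487223), bridges neighbouring foot processes. Its level of 1287, 1615, 1689 and 1549 CPM in controls compared with 338, 438 and 104 in diabetic libraries, a change of -2.38 (SE 0.39, adjusted p = 0.000576). Magi2, a scaffold that binds nephrin, was at 615 to 719 CPM in controls and 137, 224 and 79.2 in diabetic libraries (-2.17, SE 0.32, adjusted p = 0.000254). Cldn5, a claudin present in podocytes as well as endothelium, was at 143 to 216 CPM against 54, 71 and 10.2 (-1.87, SE 0.42, adjusted p = 0.00561). Crb2, a polarity protein, and Kirrel, which encodes the nephrin relative Neph1, had changes of -1.60 and -1.23. In each of these 5 genes the highest diabetic library lay below the lowest control. The adaptor Nck1 was the member called higher, at 0.64 (SE 0.20, adjusted p = 0.0259), and its call was lost without diabetic library 1 or 3 or control 2 or 3. Not all the complex moved: Kirrel2 (-0.18, adjusted p = 0.741) and the cation channel Trpc6 (0.39, adjusted p = 0.607) were not called.

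Surface and secreted proteins of podocytes fell further. In that list of 20 genes 14 were called lower and none higher, with a median change of -1.29, and leaving out each library gave 11 to 17 lower calls. Ptpro, a receptor tyrosine phosphatase of the apical membrane, was at 1028, 1408, 1548 and 1098 CPM in controls and 237, 386 and 88.3 in diabetic libraries, a change of -2.42 (SE 0.41, adjusted p = 0.000715). Thsd7a, known as an autoantigen of membranous nephropathy, was at 1067 to 1466 CPM and 275, 375 and 91.6 (-2.36, SE 0.40, adjusted p = 0.000742). Plat, which encodes tissue plasminogen activator, was at 437 to 585 CPM and 108, 112 and 37.4 (-2.51, SE 0.41, adjusted p = 0.000589). These 3 genes were each below the controls in every diabetic library. Npr1, the receptor for atrial natriuretic peptide, was at 184, 205, 272 and 242 CPM against 66.4, 73.2 and 42.6, and its change of -1.89 (SE 0.24, adjusted p = 9.92e-05) had the lowest adjusted p of the list. Enpep, an aminopeptidase that cleaves angiotensin II, fell by 1.97 (adjusted p = 0.00266), and Sulf1, an extracellular sulfatase acting on heparan sulfate, fell by 1.73 (adjusted p = 0.000564). Mme, encoding neprilysin, fell by 1.38 (adjusted p = 0.00223) although it was barely enriched over whole kidney (0.19 on the log2 scale). Pdpn (-0.86, adjusted p = 0.104) was not called.

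Transcription factors of podocytes were lower in 9 of 15 genes and higher in 1, with a median of -1.11. Without diabetic library 1, 6 were called lower, and 5 in the fit of only the 7 libraries. Lmx1b, mutated in nail-patella syndrome, was at 430 to 636 CPM against 224, 340 and 74.5 (-1.39, SE 0.37, adjusted p = 0.0128). The diabetic libraries were all below the controls. Zfp423 had the largest fall of the list, from 81.6 to 117 CPM to 18.6, 42.8 and 13.6 (-1.99, SE 0.29, adjusted p = 0.000251). Klf15, a factor with protective effects in podocytes that is also abundant in tubules, was less abundant in TRAP RNA than in whole kidney (-0.89 on the log2 scale). It fell by 1.76 (adjusted p = 0.00486). Foxd2 fell by 1.58 (adjusted p = 0.0048). Tcf21 (-1.11, adjusted p = 0.0911) missed the threshold. Tfap2b, a factor of the distal tubule, was the member called higher (0.69, adjusted p = 0.0159), and it lost its call without diabetic library 3.

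Genes of the podocyte cytoskeleton were called lower more often than higher. Of 26, 8 fell and 2 rose, against 11.7 and 11.2% of all genes, so no rise of the list is shown. Without diabetic library 3, 5 were called lower, and without diabetic library 2, 13 were. Ddn, encoding dendrin, a partner of nephrin, was at 908, 713, 823 and 622 CPM in controls and 222, 327 and 124 in diabetic libraries (-1.77, SE 0.29, adjusted p = 0.000505). Tns2, encoding a tensin, was at 1488 to 1969 CPM against 585, 806 and 300 (-1.67, SE 0.27, adjusted p = 0.000456). Arhgap24, a Rac-inactivating protein, fell by 1.37 (adjusted p = 0.00509) and the myosin Myo1e by 1.20 (adjusted p = 0.0127). Actn4, the broadly expressed alpha-actinin whose mutations cause podocyte disease, was chosen after its values were seen and was not called (-0.11, adjusted p = 0.787). The 2 members that rose were Cfl1, encoding the actin-severing protein cofilin (0.69, SE 0.19, adjusted p = 0.0131; lost without diabetic library 2), and Anln, encoding anillin, from 0.277 to 1.48 CPM in controls to 7.26, 5.27 and 7.91 (2.84, SE 0.71, adjusted p = 0.00921). Of the Hippo pathway, Lats2, a kinase that inhibits Yap1, fell from 740 to 897 CPM to 282, 495 and 168 (-1.37, adjusted p = 0.00241), and Yap1 itself fell by 0.58 (adjusted p = 0.019). That list had 5 lower and 1 higher call among 19, and without diabetic library 3 1 lower call.

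The basement membrane list showed falls and rises at once: 8 of 15 genes were lower and 4 higher. The alpha chains of collagen IV that form the mature glomerular network were lower together. Col4a3 was at 1816, 2158, 2073 and 1982 CPM in controls and 852, 1116 and 328 in diabetic libraries (-1.39, SE 0.32, adjusted p = 0.00495), Col4a4 fell by 0.99 (adjusted p = 0.00293) and Col4a5 by 1.25 (adjusted p = 0.00293). Lamb2, the laminin chain of the mature membrane, was at 314 to 441 CPM against 179, 195 and 75 (-1.33, SE 0.25, adjusted p = 0.00166). Itga3, whose integrin binds laminin, was at 484 to 645 CPM against 239, 254 and 229 (-1.21, SE 0.18, adjusted p = 0.000244). In all these genes the groups did not overlap, and in Itga3 the 3 diabetic libraries stood close together. Npnt, encoding the matrix protein nephronectin, fell by 1.51 (adjusted p = 0.00101). In the other direction, Nid1, encoding nidogen, rose from 19.9 to 36.6 CPM to 128, 54 and 69.5 (1.55, SE 0.30, adjusted p = 0.00204). The perlecan gene Hspg2 (1.17), Lama5 (0.72) and Lamc1 (0.60) were also called higher, but their groups overlapped and each lost its call without diabetic library 1 or 3, which left 1 higher call in either case.

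Among genes above their whole-kidney level the change followed how far a gene was enriched in podocyte RNA. Enrichment was measured as the ratio of CPM + 0.5 in 5 TRAP libraries of 3-month controls to that in the whole-kidney library. None of these libraries is on either side of the comparison at 6 months, but the 5 controls are among the 17 libraries of the fit behind its filter and tests. They are also the control side of the comparison at 3 months. Among 173 genes at least 16-fold enriched, 117 (67.6%) were called lower and 0 higher, with a median change of -1.41. Among 460 genes enriched 4- to 16-fold, 211 (45.9%) were lower and 5 (1.09%) higher, with a median of -0.796. Genes enriched 2- to 4-fold were lower in 18.6% and higher in 4.87%. Genes at 0.5 to 1 times their kidney level had the reverse tendency, with 14.5% higher and 8.32% lower of 7309 and a median of 0.21. Below that level the order did not go on. The 1329 genes at 0.25 to 0.5 times had 18.3% higher and 16% lower, with a median of 0.187. With 2 CPM added in place of 0.5, 26.6% of that class were lower and 17% higher. The 55 genes under 0.25 times had a median of -0.412. At 3 months, where the change and the enrichment share those controls, the median in the most enriched class was -0.264, and in the type 1 model at 24 weeks it was -0.384.

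**Figure D2:**
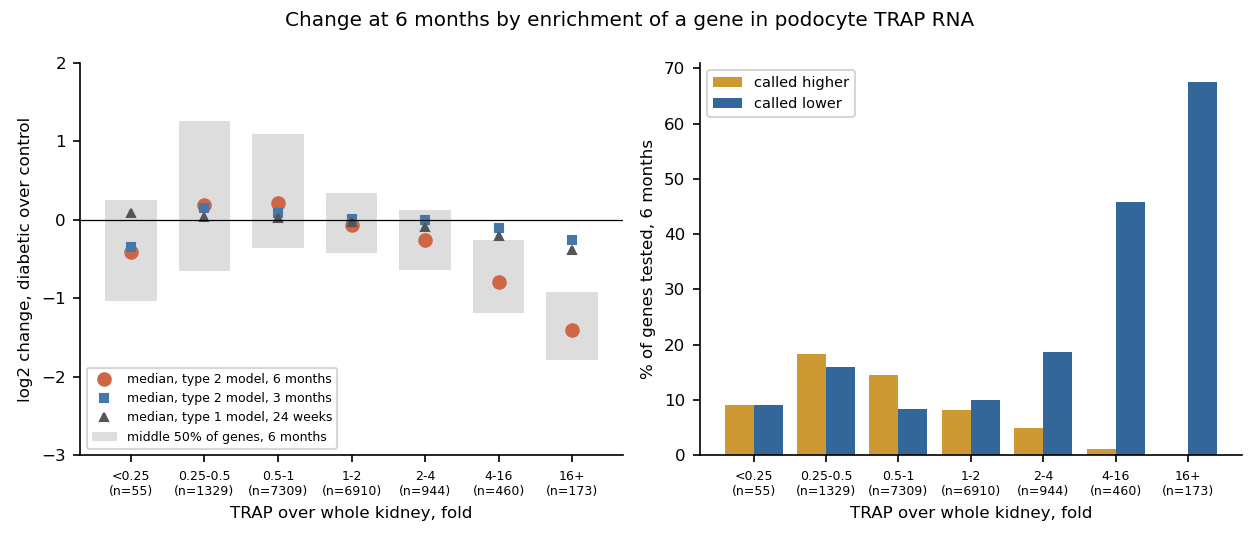
Left, median log2 change (vertical axis, diabetic over control) of genes in 7 classes of enrichment in TRAP over whole kidney (horizontal axis, fold) for the type 2 model at 6 and 3 months and the type 1 model at 24 weeks, with the middle 50% of genes at 6 months as grey bars; right, the percentage of each class called higher or lower at 6 months. At 6 months the median fell to -1.41 in the class at least 16-fold enriched, of which 67.6% were called lower.

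The largest falls among enriched genes were in genes not in the classical podocyte lists. Mgat5b, a glycosyltransferase, was at 65, 74, 75.8 and 47.1 CPM in controls and 3.79, 6.93 and 0 in diabetic libraries (-4.06, SE 0.55, adjusted p = 0.000186). Ngb, encoding the oxygen-binding protein neuroglobin, was at 25.9 to 37.3 CPM against 3.75, 5.75 and 1.58 (-3.06, SE 0.43, adjusted p = 0.000191). Astn2, encoding astrotactin 2, was at 84.3, 102, 130 and 92 CPM against 14.9, 14.9 and 7.12 (-3.02, SE 0.36, adjusted p = 8.45e-05). These 3 genes were over 16-fold enriched in TRAP RNA, and their falls exceeded those of the 12 markers. The potassium channel genes Kcnj12 (-2.97) and Kcng2 (-2.93) and the transcription factor Mafa (-2.95) followed, with adjusted p-values of 0.000786, 1.98e-05 and 0.000143. H2-Q6, a class I MHC gene, fell from 596 to 713 CPM to 79.7, 131 and 65.9 (-2.82, SE 0.36, adjusted p = 0.000111), but its reads may be shared with near-identical neighbours of the H2-Q family.

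Of the genes at least 4-fold enriched 5 were called higher, or 1 where 2 CPM in place of 0.5 were added before taking the ratio. Lif, a cytokine of the interleukin 6 family, rose from 8.72, 9.9, 9.79 and 10.5 CPM to 27.2, 22 and 18.2 (1.21, SE 0.28, adjusted p = 0.0056). Ank1, encoding an ankyrin, rose from 3.46 to 5.43 CPM to 9.76, 12.5 and 37.3 (2.14, SE 0.43, adjusted p = 0.00244). In both genes the groups were apart. The other 3 were Nfkbie (1.31), Prune2 (1.31) and 6030419C18Rik (0.88), whose libraries overlapped and which were named after their values were seen. Some of the most enriched genes kept close to control values and were not called, chosen likewise after seeing values: Necab3 (-0.01), Vash1 (0.02), Epha6 (0.15) and Anxa1 (-0.27).

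Genes for protein folding in the endoplasmic reticulum (ER) were lower as a block. The ER holds chaperones and disulfide isomerases that fold secreted and membrane proteins, and their genes are induced together by the unfolded protein response. Many of their promoters carry the ER stress element, in which the letters CCAAT, bound by the factor NF-Y, and CCACG, bound by ATF6, stand 9 bases apart. Stretches around it are shown for 6 genes of the list that were called lower, as the element is what their promoters share. They are RefSeq sequences on GRCm38.p6, read 5′ to 3′ on the gene's strand and lying wholly before the gene's start, with the fixed letters of the element in capitals; for Hsp90b1 (the one nearer its start), Creld2 and Calr the element lies on the other strand and so reads reversed.
Hspa5 (chr2:34772000-34772068, plus strand): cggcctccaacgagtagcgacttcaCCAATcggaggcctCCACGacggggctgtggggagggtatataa
Pdia6 (chr12:17266466-17266534, plus strand): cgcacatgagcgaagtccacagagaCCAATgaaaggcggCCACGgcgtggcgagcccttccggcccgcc
Dnajc3 (chr14:118937802-118937870, plus strand): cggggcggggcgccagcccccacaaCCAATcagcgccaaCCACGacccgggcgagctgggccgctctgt
Hsp90b1, farther from its start (chr10:86705613-86705681, minus strand): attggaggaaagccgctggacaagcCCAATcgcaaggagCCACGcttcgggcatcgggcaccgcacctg
Hsp90b1, nearer its start (chr10:86705508-86705576, minus strand): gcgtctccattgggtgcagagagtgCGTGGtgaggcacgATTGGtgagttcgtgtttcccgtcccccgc
Creld2 (chr15:88819495-88819563, plus strand): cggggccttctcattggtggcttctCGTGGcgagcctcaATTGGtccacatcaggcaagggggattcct
Calr (chr8:84847050-84847118, minus strand): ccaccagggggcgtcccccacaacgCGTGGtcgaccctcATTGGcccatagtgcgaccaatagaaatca

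Searched on both strands of windows from 250 bases before to 50 bases after each start, the element was in 8 of the 22 genes of the list that had a window, and in 37 of all 27025 genes (0.1369%). Of the 16 members with a window that were called lower 7 held it, the 6 genes above and Syvn1. Canx, the calnexin gene, held it and was not called. A match is a description of letters and not a measurement of binding.

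Of the 27 members tested, 20 were called lower and none higher, against 11.7% of all genes called lower, and in all 20 the groups did not overlap. The median change was -0.77. Without diabetic library 3, 16 were called, and with library totals as scaling 13. Hspa5, encoding the chaperone BiP and described here after its values were seen, was at 471, 298, 577 and 529 CPM in controls and 143, 147 and 96.3 in diabetic libraries (-1.86, SE 0.30, adjusted p = 0.000506). Hsp90b1, encoding the chaperone GRP94, was at 255, 208, 268 and 266 CPM against 90.7, 83.5 and 81.8 (-1.55, SE 0.21, adjusted p = 0.000143). The 3 diabetic libraries lay close together in Hsp90b1, unlike in the podocyte markers, and diabetic library 3 did not stand apart. Pdia4, a disulfide isomerase, was at 117 to 197 CPM against 46.9, 54.4 and 36.1 (-1.76, SE 0.24, adjusted p = 0.000144). Hyou1, the nucleotide exchange factor of BiP, fell by 1.27 (adjusted p = 0.000155), Pdia6 by 1.37 (adjusted p = 0.000215) and Pdia3 by 1.07 (adjusted p = 0.000494). The largest fall was in Sdf2l1, a partner of BiP that is also named after its values were seen, from 19.4 to 43.6 CPM to 6.84, 6.02 and 1.19 (-2.85, SE 0.48, adjusted p = 0.00084). The sensors and factors of the unfolded protein response were mixed: Atf6 fell by 0.63 (adjusted p = 0.0143) and Xbp1 by 0.77 (adjusted p = 0.0127), whereas Ern1 (0.18, adjusted p = 0.419) and Eif2ak3 (-0.17, adjusted p = 0.497) were not called. These 4 members too were chosen after their values were seen. The list holds 0 genes enriched 4-fold in TRAP RNA, and its median enrichment was 0.333 on the log2 scale, far below that of the markers (6.29).

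**Figure D3:**
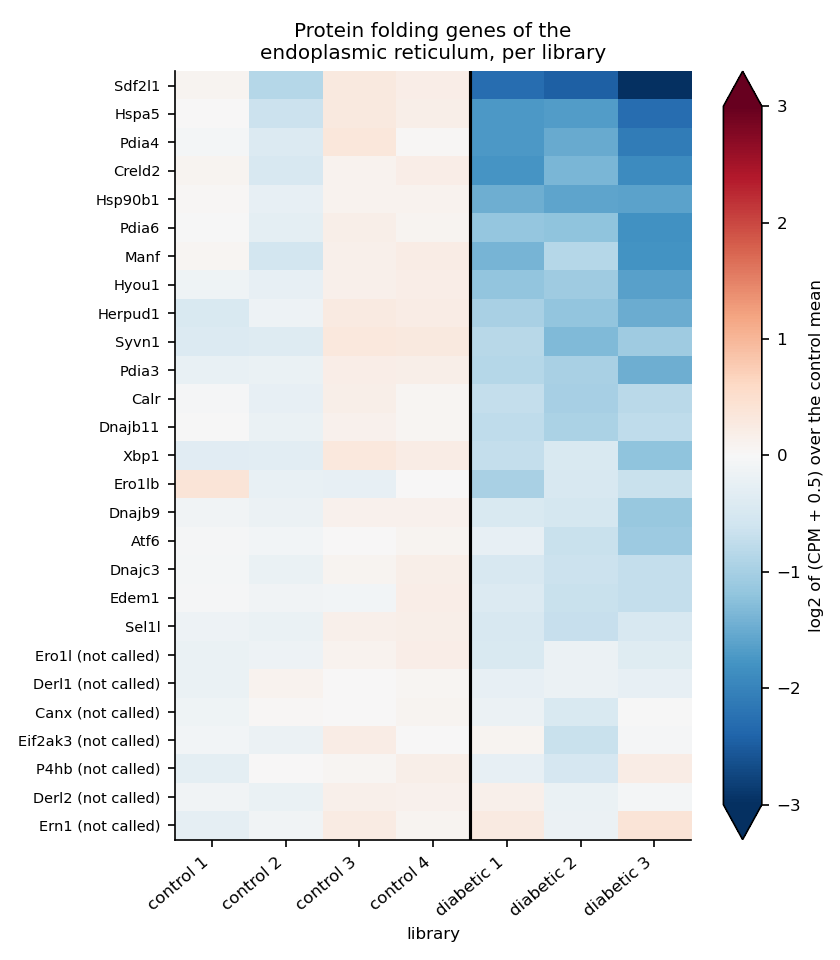
Heat map of the ER protein folding genes (vertical axis) in the 4 control and 3 diabetic libraries (horizontal axis); colour is the log2 of CPM + 0.5 over the control mean, with values beyond the colour bar shown at its ends, and genes not called are marked. The 20 called genes were below the controls in all 3 diabetic libraries, with Sdf2l1 the lowest at a change of -2.85.

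Further along the secretory route the shifts were smaller. Of 42 genes for translocation, N-glycosylation and vesicle transport, 15 fell and 1 rose, with a median of -0.456; without diabetic library 3, 6 fell, and with library totals 4. Rpn1, a subunit of oligosaccharyltransferase, was at 112, 113, 147 and 119 CPM in controls and 69.7, 65.8 and 65.9 in diabetic libraries (-0.87, SE 0.14, adjusted p = 0.000435). Lman1, a cargo receptor between ER and Golgi, was at 111 to 135 CPM against 67.7, 65.3 and 49.8 (-1.02, SE 0.18, adjusted p = 0.000797). Rpn2 fell by 0.78, Stt3b by 0.68 and the signal recognition particle gene Srp72 by 0.62. All 5 held with each library left out in turn. The signal peptidase subunit Spcs3 was the member that rose (0.66, adjusted p = 0.0195), and it lost the call without diabetic library 1 or 3 or control 4. The integrated stress response list moved the other way, with 6 of 25 higher and 1 lower, and 4 higher without diabetic library 1 or 3 or control 2 or 4. Psat1, an enzyme of serine synthesis, rose from 7.96 to 16.9 CPM to 30.5, 32.6 and 27.8 (1.27, SE 0.22, adjusted p = 0.000933), and the transcription factor Atf5 from 15.1 to 27.1 CPM to 45.2, 50.2 and 51 (adjusted p = 0.012).

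Nuclear genes of oxidative phosphorylation had negative log2 changes in 40 of 40 members, the nearest to 0 at -0.158, but only 14 were called lower and the median was -0.577. The number called ran from 2 without diabetic library 3 to 30 without diabetic library 2, and it was 4 with library totals. Atp5b, the catalytic subunit of ATP synthase, was at 1318, 1308, 1304 and 1361 CPM in controls and 886, 832 and 471 in diabetic libraries (-0.86, SE 0.24, adjusted p = 0.0154). Controls were nearly equal and diabetic library 3 was farthest below, and without it the change was -0.62 (adjusted p = 0.0773). Sdhb, of complex II, was at 93.2 to 104 CPM against 62.9, 57.7 and 21.5 (-1.05, SE 0.27, adjusted p = 0.0102). Uqcrc2, of complex III, was at 117 to 134 CPM against 84.7, 69.7 and 42.3 (-0.93, SE 0.22, adjusted p = 0.00659). Sdhb and Uqcrc2 kept their calls with each library left out. Genes encoded by mitochondrial DNA were called lower in 3 of 14, such as mt-Co1, which fell by 1.31 (adjusted p = 0.0124; lost without diabetic library 3). The summed CPM of the oxidative phosphorylation genes was 6699 to 6952 in controls and 5141, 5510 and 3005 in diabetic libraries.

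Genes of antioxidant defence were divided, with 9 lower and 6 higher among 29. The balance was not firm: without diabetic library 3, 3 were lower and 4 higher, and with library totals 4 were lower and 9 higher. Prdx3, the mitochondrial peroxiredoxin, was at 93.8, 60.5, 71.4 and 73.1 CPM in controls and 33.2, 42.1 and 10.3 in diabetic libraries (-1.37, SE 0.34, adjusted p = 0.00827), and Sod1, encoding the cytosolic superoxide dismutase, fell by 0.82 (adjusted p = 0.00701). The metallothioneins, small metal-binding proteins, rose: Mt2 was at 11 to 15.7 CPM in controls and 42, 52.6 and 58.8 in diabetic libraries (1.95, SE 0.27, adjusted p = 0.000158), and Mt1 rose by 1.18 (adjusted p = 0.000624). Nqo1 and Srxn1, targets of the factor Nrf2, rose by 0.87 (adjusted p = 0.00253) and 0.67 (adjusted p = 0.0017). In these 6 genes diabetic and control libraries were apart. Cybb, encoding the NADPH oxidase subunit of phagocytes, rose by 2.74 (adjusted p = 0.0195) and lost the call without diabetic library 3.

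The lists of lipid genes had calls in both directions. Over the fatty acid list 4 genes rose and 4 fell among 39, close to the 11.2 and 11.7% of all genes, so the genes named from it are single genes and not a shift of the list. Lpl, lipoprotein lipase, was at 203, 216, 377 and 277 CPM in controls and 64.1, 63.9 and 23.1 in diabetic libraries (-2.40, SE 0.32, adjusted p = 0.000121). Cd36, a fatty acid transporter, was at 39.1 to 59.7 CPM against 9.97, 12.7 and 19.8 (-1.95, SE 0.37, adjusted p = 0.00186). The lipid droplet coat genes rose: Plin4 from 0.598 to 2.74 CPM to 16.4, 12.6 and 38.6 (4.01, SE 0.61, adjusted p = 0.00035), and Plin2 from 41.6 to 50.8 CPM to 78.9, 82.5 and 168 (1.29, SE 0.20, adjusted p = 0.000311). Of 30 genes of cholesterol handling 6 rose and 7 fell; without diabetic library 3, 3 rose and 3 fell, without control 3, 2 rose, and in the fit of only the 7 libraries 2 rose and 2 fell. Cyp51, of sterol synthesis, fell from 36.3, 55.9, 74.1 and 63.8 CPM to 11.7, 11.2 and 13.8 (-2.24, SE 0.23, adjusted p = 3.81e-05). Idi1 and Mvd, of the same pathway, fell by 1.20 and 0.89. The call of Mvd was lost without diabetic library 3 or control 4, and that of Idi1 in the fit of only the 7 libraries. The cholesterol exporter Abca1 rose from 33.7 to 62.8 CPM to 190, 81.4 and 290 (2.15, SE 0.42, adjusted p = 0.00246). Apoe, an apolipoprotein abundant in macrophages and mesangium, rose from 58.2 to 69.8 CPM to 442, 233 and 475 (2.60, SE 0.34, adjusted p = 0.000121). The libraries of the 2 groups did not overlap in Cyp51, Idi1, Mvd, Abca1 and Apoe. Hmgcs1, also of sterol synthesis, was called higher at 0.52 (adjusted p = 0.0322), and lost the call without diabetic library 1 or control 1, 2 or 3.

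Glucose handling had 10 higher and 4 lower calls among 34 genes, against 11.2 and 11.7% of all genes. The lower calls were near that share, so those named are single genes and not a fall of the list. Without diabetic library 3 the list had 5 higher calls, where 904 of all 17967 genes tested were called higher. Hk2, an inducible hexokinase, rose from 0.738, 0.87, 1.78 and 2.25 CPM to 23.2, 7.2 and 47.2 (4.15, SE 0.90, adjusted p = 0.00449). The lactate transporter Slc16a1 rose from 7.55 to 9.12 CPM to 25, 24.2 and 38 (1.81, SE 0.33, adjusted p = 0.00112). The pyruvate dehydrogenase kinases, which close the entry of pyruvate into mitochondria, diverged: Pdk1 rose by 1.08 (adjusted p = 0.00101), while Pdk2 and Pdk3 fell by 0.84 and 0.88 (adjusted p = 0.012 and 0.00447). The Pdk2 call was lost without diabetic library 3. In the insulin and IGF list 3 genes rose and 3 fell among 30, near the share of all genes in each direction (11.2 and 11.7%), so no shift of the list is shown. Of its single genes, Irs2, a substrate of the insulin receptor, was at 91.5 to 276 CPM in controls and 78.8, 61 and 78.5 in diabetic libraries (-1.07, SE 0.28, adjusted p = 0.0118). Akt2 fell by 0.65 (adjusted p = 0.00501), and Socs3, which damps insulin and cytokine signals, rose by 2.54 (adjusted p = 0.0104; 0.0526 without diabetic library 3).

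Genes of fibrous and interstitial matrix rose in 19 of 34 and fell in 1, against 11.2% of all genes called higher, with a median change of 1.49, and 14 to 18 rose with each library left out. Col1a1, the main chain of collagen I, was at 13.5, 24.2, 29.9 and 15 CPM in controls and 396, 163 and 273 in diabetic libraries (3.75, SE 0.81, adjusted p = 0.00556). Col3a1 rose from 21.9 to 37.2 CPM to 252, 102 and 172 (2.66, SE 0.65, adjusted p = 0.00999). Both are also markers of fibroblasts, and both were highest in diabetic library 1 and not in library 3. Col6a1 and Col6a2, encoding chains of the microfibrillar collagen VI, rose by 2.80 (adjusted p = 0.00167) and 2.87 (adjusted p = 0.00205). Mmp14, a membrane-bound collagenase, rose from 5.27 to 11 CPM to 62.8, 35.2 and 127 (3.21, SE 0.61, adjusted p = 0.00206). Spp1, encoding osteopontin, rose from 151, 115, 107 and 100 CPM to 1054, 683 and 1065 (2.98, SE 0.34, adjusted p = 6.09e-05). Its lowest diabetic library was above the highest control. Per length it went from 66.05 to 618.7 FPKM, above the diabetic mean of Podxl (553.9). The member that fell was Col18a1, a podocyte-enriched basement membrane collagen, at -0.92 (adjusted p = 0.00888). Summed markers of fibroblasts were 286.6 to 530.1 CPM in controls and 1083, 537.4 and 724.9 in diabetic libraries, and their part in the matrix genes was not tested.

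In the TGF-beta and BMP list 8 of 30 genes rose and 4 fell, against 11.2 and 11.7% of all genes. Without diabetic library 3, 4 rose. Tgfb1, the ligand best known for driving fibrosis, was at 20.1, 26.3, 23.2 and 25.2 CPM in controls and 61.6, 55.7 and 53.5 in diabetic libraries (1.26, SE 0.28, adjusted p = 0.00478), and its receptor gene Tgfbr1 rose from 30.2 to 42.8 CPM to 90.9, 61 and 111 (1.20, SE 0.23, adjusted p = 0.00198). Fst, encoding the activin inhibitor follistatin, rose from 2.55 to 4.23 CPM to 23.1, 15.6 and 16.9 (2.46, SE 0.39, adjusted p = 0.000435). The lower calls were near the share of all genes, so those named are single genes and not a shift of the list. Bmpr1a fell by 0.77, Bmpr2 by 0.75, the betaglycan gene Tgfbr3 by 0.88 and the BMP ligand gene Bmp7 by 1.10 (adjusted p = 0.0109, 0.00698, 0.00266 and 0.00658). Bmp7 was at 414 CPM in control 2 and at 172 to 176 in the other controls, against 118, 117 and 91.7. The joint Wnt and Notch list had 8 higher and 1 lower call among 31, and 4 higher without diabetic library 3. Its members called higher included Jag1, a Notch ligand (1.11, adjusted p = 0.00357), the receptor Notch3 (1.82, adjusted p = 0.00716) and the Notch target Heyl (1.36, adjusted p = 0.00876), while other Notch targets, chosen after their values were seen, Hes1 (-0.28, adjusted p = 0.297) and Hey1 (-0.85, adjusted p = 0.243), were not called. Wnt4 was the one that fell (-0.77, adjusted p = 0.0241), with overlapping libraries, and its call was lost without diabetic library 1 or 2 or control 1 or 3.

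Guidance cues and vascular signals moved in both directions. Vegfa, the growth factor by which podocytes maintain the glomerular endothelium, was at 1398, 1337, 1932 and 1548 CPM in controls and 622, 919 and 400 in diabetic libraries (-1.26, SE 0.29, adjusted p = 0.00502). Angptl2, a secreted relative of angiopoietins, was at 451 to 803 CPM against 145, 139 and 76.2 (-2.45, SE 0.35, adjusted p = 0.00023). Robo2, a receptor that binds nephrin through an adaptor, was at 380 to 490 CPM against 134, 240 and 81.7 (-1.57, SE 0.30, adjusted p = 0.00183). The secreted Sema3e (-2.04), the netrin receptor Unc5c (-2.12), Sema5a (-1.43) and Plxnb1 (-1.11) also fell. All of these 7 were at least 4-fold enriched in TRAP RNA, and none of their groups overlapped. Ephb2 (1.47), Ephb4 (1.03), Efnb2 (1.04), Nrp2 (1.36) and Unc5b (1.42), receptors and a ligand that guide axons and vessels, rose, and they were less than 2-fold higher in TRAP RNA than in kidney. In all, 11 guidance genes rose and 7 fell among 32, and without diabetic library 3, 6 rose.

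Among the vascular genes, the vasoconstrictor gene Edn1 rose from 1.34, 0.381, 0.89 and 0.762 CPM to 11.5, 3.87 and 12.4 (3.46, SE 0.87, adjusted p = 0.00954). Pdgfa, a growth factor for mesenchymal cells, rose from 10.4 to 18.4 CPM to 44.7, 44 and 30.2 (1.47, SE 0.21, adjusted p = 0.000177). Both receptor genes rose too, Pdgfra by 1.54 (adjusted p = 0.00946) and Pdgfrb by 1.42 (adjusted p = 0.0141; 0.0756 without diabetic library 1). Nos3 was at 3.75, 4.84, 4.8 and 3.12 CPM in controls and 10.8, 8.87 and 9.88 in diabetic libraries (1.25, SE 0.37, adjusted p = 0.0205), with calls lost without diabetic library 1 or 3 or control 4. The vascular list had 9 higher and 4 lower calls among 21, and 4 higher without diabetic library 1.

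**Figure D4:**
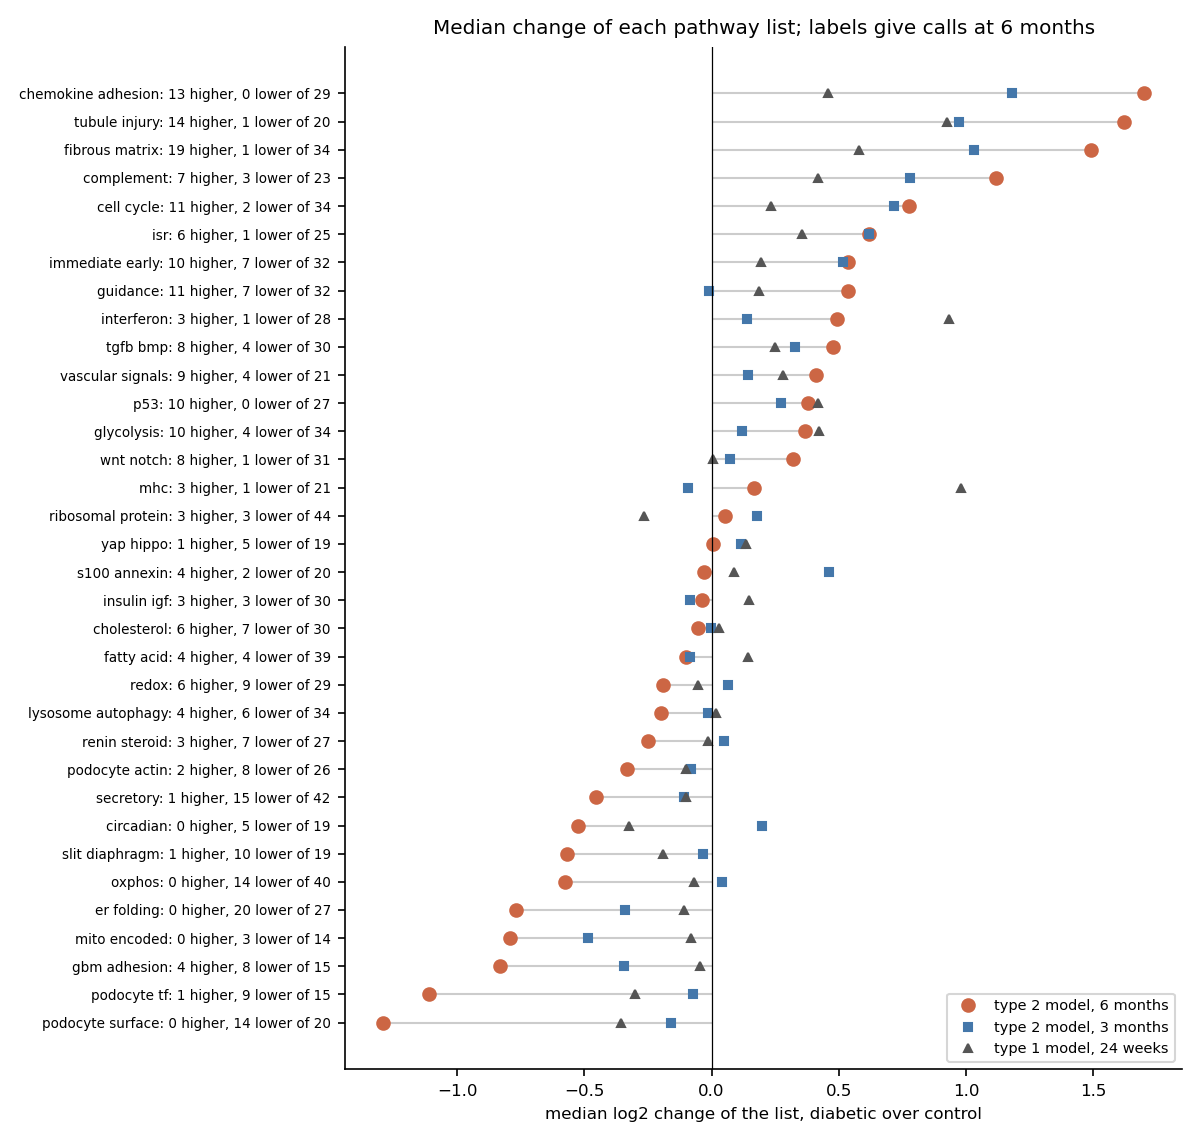
Median log2 change, diabetic over control (horizontal axis), of each pathway list in the type 2 model at 6 and 3 months and the type 1 model at 24 weeks; the labels on the vertical axis give the genes called higher and lower at 6 months out of those tested. At 6 months the podocyte surface list lay lowest, at -1.29, and the chemokine and adhesion list highest, at 1.70.

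Genes that injured tubule and glomerular epithelium is known to switch on were among the largest rises. Of the 20 in that list 14 rose and 1 fell, with a median of 1.62, and 13 to 14 rose with each library left out. Havcr1, encoding the injury marker KIM-1, was at 1.41, 1.63, 3.86 and 3.64 CPM in controls and 63.3, 41.2 and 58.6 in diabetic libraries (4.34, SE 0.87, adjusted p = 0.0033). Lcn2, encoding NGAL, another urinary injury marker, rose from 0.445 to 1.68 CPM to 26.8, 16.7 and 31.5 (4.94, SE 0.89, adjusted p = 0.00154). Sox4, a transcription factor of injured and developing epithelium, rose from 11.7 to 21.5 CPM to 80.3, 78.2 and 73.8 (2.30, SE 0.37, adjusted p = 0.000576). These genes were low in each control and high in each diabetic library, and Sox4 was almost equal in the 3. Keratin genes of simple epithelium rose: Krt8 by 1.57, Krt18 by 2.09, Krt19 by 3.79 and Krt20 by 5.09 (adjusted p = 0.00151, 0.00176, 0.000742 and 0.00386), while Krt7 did not pass the test (-0.03, adjusted p = 0.909). Cryab, the small heat shock protein and the member that fell, was enriched in TRAP RNA and dropped from 244 to 341 CPM to 96.4, 174 and 37.4 (-1.48, SE 0.35, adjusted p = 0.00747). Vim, abundant in podocytes, was not called (-0.07, adjusted p = 0.868).

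Complement genes rose in 7 of 23 and fell in 3; without diabetic library 1, 4 rose. The central component C3 went from 75.5, 49.9, 52.7 and 52.4 CPM to 1384, 654 and 1684 (4.43, SE 0.52, adjusted p = 8.45e-05). The receptors for its fragment and that of C5, C3ar1 and C5ar1, rose by 3.04 (adjusted p = 0.00257) and 3.21 (adjusted p = 0.00607). Cfb, of the alternative pathway, fell from 14.1 to 19.3 CPM to 5.46, 7.36 and 6.33 (-1.39, SE 0.26, adjusted p = 0.00139). Cd59a, a podocyte-enriched inhibitor of the membrane attack complex, was at 178 to 200 CPM in controls and 82.6, 115 and 30.1 in diabetic libraries (-1.32, SE 0.38, adjusted p = 0.0205), and lost the call without diabetic library 3. The third gene that fell was C8a (-1.90, adjusted p = 0.00419).

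Chemokines and adhesion molecules rose in 13 of 29 genes and fell in none, with a median of 1.70, and 12 to 14 rose with each library left out. Vcam1, an adhesion molecule for leukocytes, was at 6.37, 5.87, 3.86 and 4.26 CPM in controls and 67.5, 39.4 and 81.2 in diabetic libraries (3.62, SE 0.64, adjusted p = 0.00127). Cxcl1, an attractant of neutrophils, rose from 1.41 to 2.74 CPM to 11.1, 8.92 and 10.2 (2.32, SE 0.54, adjusted p = 0.00588), Icam1 by 2.01 (adjusted p = 0.00341) and Cxcl16 by 1.94 (adjusted p = 0.00128). Their libraries did not overlap. Interferon-stimulated genes were called higher in 3 of 28 and lower in 1, and class I and II MHC genes higher in 3 of 21 and lower in 1. The higher calls were near the 11.2% of all genes, and the medians were 0.493 and 0.166. No interferon gene was called higher without diabetic library 1 or 3. Among them, H2-DMa, of class II antigen loading, rose by 2.42 (adjusted p = 0.00394). Of the S100, annexin and galectin genes 4 of 20 rose and 2 fell; S100a6 rose from 4.19 to 10.9 CPM to 96.6, 166 and 45.1 (3.70, SE 0.74, adjusted p = 0.00315) and Lgals3, encoding galectin 3, from 12.3 to 14.9 CPM to 63.4, 95.5 and 78.4 (2.57, SE 0.38, adjusted p = 0.000339).

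Targets of p53 rose in 10 of 27 and fell in none; 7 to 10 rose with each library left out. Cdkn1a, encoding the cell cycle inhibitor p21, was at 3.02, 3.7, 8.51 and 4.61 CPM in controls and 39.5, 64.2 and 96.2 in diabetic libraries (3.74, SE 0.67, adjusted p = 0.00162). Pmaip1, encoding the pro-death protein Noxa, rose from 5.29 to 7.99 CPM to 35.8, 37.8 and 37.4 (2.51, SE 0.32, adjusted p = 0.000109), with nearly equal diabetic libraries. Gdf15, a stress-induced cytokine, rose by 3.27 (adjusted p = 0.00103). Cell cycle genes rose in 11 of 34 and fell in 2, and the number that rose was 5 without control 4 and 6 without diabetic library 1. Ccnd2, encoding cyclin D2, rose from 16.7, 26.3, 29.1 and 26.3 CPM to 99.7, 65.8 and 168 (2.17, SE 0.40, adjusted p = 0.00167). Mki67, a marker of dividing cells, rose from 3.29 to 6.96 CPM to 34.7, 12.9 and 215 (4.05, SE 0.75, adjusted p = 0.00206), and diabetic library 3 was far above the other two. The 2 that fell were the podocyte-enriched inhibitor Cdkn1c, encoding p57, from 1760 to 2837 CPM to 827, 1222 and 580 (-1.28, SE 0.30, adjusted p = 0.00622), and E2f1 (-0.92, adjusted p = 0.0225), whose call was lost without diabetic library 1 or 3 or control 1.

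The joint list of immediate early and heat shock genes had 10 higher and 7 lower calls among 32, with 6 higher without diabetic library 3 and 2 lower without diabetic library 1. Myc, a transcription factor, rose from 9.59, 6.31, 9.3 and 9.91 CPM to 37.5, 39.5 and 65.2 (2.43, SE 0.36, adjusted p = 0.000251), Maff from 8.32 to 11.6 CPM to 27.1, 32.6 and 45.3 (1.88, SE 0.33, adjusted p = 0.000893), and Klf4 by 1.63 (adjusted p = 0.00218). Fos (0.38, adjusted p = 0.811) and Jun (-0.19, adjusted p = 0.455), immediate early genes chosen here after their values were seen, were not called. Hsph1, a heat shock co-chaperone, was at 211, 117, 473 and 386 CPM in controls and 65.1, 50 and 48.8 in diabetic libraries (-2.44, SE 0.48, adjusted p = 0.00262), and Hsp90aa1 was at 414, 188, 622 and 565 CPM against 164, 163 and 128 (-1.56, SE 0.33, adjusted p = 0.00354). In these genes the controls differed widely, with controls 3 and 4 highest and control 2 lowest. Hspa1a showed it most, at 7.91, 11.8, 316 and 157 CPM in controls, and its call (-3.96, adjusted p = 0.0253) was lost without any one of the diabetic libraries; its reads may be shared with the near-identical Hspa1b.

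Clock genes gave 5 lower calls among 19 and none higher, and 2 without diabetic library 1 or 3. Nr1d1, encoding the repressor REV-ERB alpha, was at 206, 214, 425 and 254 CPM in controls and 47.8, 48.1 and 39.7 in diabetic libraries (-2.60, SE 0.33, adjusted p = 0.000109). Dbp, a clock output factor, was at 257 to 339 CPM against 71.2, 89.5 and 56.4 (-2.10, SE 0.63, adjusted p = 0.0259), and Nr1d2 fell by 1.08 (adjusted p = 0.00239). Arntl, in the activating limb, was not called (0.65, adjusted p = 0.601). The call of Dbp was lost without diabetic library 1 (adjusted p = 0.0708) or 3 (adjusted p = 0.132). The hour at which kidneys were taken was not used here, and its part in these genes was not tested. The E-box CACGTG, searched on both strands, was in 5 of the 16 clock genes with a promoter window (Per1, Cry1, Tef, Bhlhe41 and Ciart) and in 8.093% of all genes; of the 5 called lower only Per1 held it. The call of Per1 itself (-1.09, adjusted p = 0.0376) was lost without any one library other than control 1, and its libraries overlapped.

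TRAP RNA also carries RNA of other kidney cells, and their markers moved as well. Proximal tubule markers were called lower in 15 of 24 and higher in none, with a median of -1.15, and 10 were lower without diabetic library 3. Their summed CPM was 16490 to 19830 in controls and 11380, 7697 and 4871 in diabetic libraries. Slc7a13, an amino acid transporter of the straight segment, was at 114, 118, 155 and 122 CPM against 13.9, 10.8 and 3.56 (-3.70, SE 0.33, adjusted p = 1.43e-05). Cyp4b1, a cytochrome, was at 493 to 674 CPM against 129, 74.9 and 92.3 (-2.62, SE 0.31, adjusted p = 6.09e-05). These tubule genes were less abundant in TRAP RNA than in kidney, and they fell further than any of the 12 podocyte markers (lowest -2.42). As a list the tubule markers fell less far, with the median of -1.15 against -1.63 for the podocyte markers. Kap, the androgen-regulated kidney protein, fell most among the markers, from 1417, 2686, 3125 and 3041 CPM to 169, 111 and 80.5 (-4.41, SE 0.51, adjusted p = 6.09e-05). The transporter genes Slco1a1 and Slc22a19 were at 22.8 to 48.8 and 12.5 to 33.6 CPM in controls. Each had no count in 1 diabetic library, and their fitted changes were -7.38 and -4.33. With each diabetic library left out in turn, the change ran from -6.54 to -9.84 in Slco1a1 and from -3.94 to -4.62 in Slc22a19. The size of the fall in Slco1a1 is thus not firm.

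Markers of macrophages rose in 10 of 15, and 13 of 15 had no overlap between groups, against 29.6% of all genes. Their summed CPM was 81.54 to 126.1 in controls and 309.6, 187.6 and 345.6 in diabetic libraries. None was called without diabetic library 3, and 4 without diabetic library 1. Lyz2, encoding lysozyme, was at 12.3, 12.1, 16.1 and 14.1 CPM against 86.5, 53 and 79.7 (2.42, SE 0.67, adjusted p = 0.0183), and without diabetic library 3 its change was 2.35 (adjusted p = 0.0731). Itgam, an integrin of myeloid cells, was at 0.469 to 2.56 CPM against 14.6, 5.37 and 24.2 (3.34, SE 0.84, adjusted p = 0.0098). The size of these changes thus stayed similar in Lyz2 while the calls did not hold. Parietal epithelial markers rose in 6 of 8 and in 2 without diabetic library 3; Scin rose from 12.6 to 15.6 CPM to 78, 33.8 and 45.9 (1.92, SE 0.31, adjusted p = 0.000435) and Cd44, which marks activated parietal cells, by 2.60 (adjusted p = 0.00957). Of 12 markers of mesangium and smooth muscle 7 rose, and 4 without diabetic library 1 or 2; Gata3 rose by 1.41 (adjusted p = 0.00101), and Tagln, at 28.4 to 52.3 CPM in controls, was at 222, 402 and 42.4.

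Lymphocyte markers had 1 call among 11 tested, Cd3e, which was lost without diabetic library 3 (adjusted p = 0.1795) or any one of the controls. These markers had a summed CPM of 32.4 to 87.37 in controls and 301.5, 132.3 and 399 in diabetic libraries. Endothelial markers had 2 higher and 2 lower calls of 15, near the 11.2 and 11.7% of all genes, and none higher without diabetic library 1 or 3. Tek (0.89, adjusted p = 0.0127) lost its call without diabetic library 1 or 3, and Ehd3 (-0.70, adjusted p = 0.0227) without diabetic library 3 or control 1 or 2. The other 2 were Nos3 and Cldn5, described above, and Pecam1 (0.59, adjusted p = 0.128) and Kdr (-0.10, adjusted p = 0.756) were not called. Only 2 of 8 neutrophil markers could be tested, and S100a8, Ly6g, Mpo and Camp were among those with too few counts. Slc4a1, an anion exchanger of red cells and collecting duct, was at 15 to 24.8 CPM in controls and at 29.6, 16 and 288 in diabetic libraries, and without diabetic library 3 its change was 0.24 (adjusted p = 0.629). Rplp0, a ribosomal protein gene, was at 256 to 293 CPM in controls and 384, 290 and 1023 in diabetic libraries, and without library 3 its change was 0.33 (adjusted p = 0.18). Rpl10a, whose protein is the one usually tagged for TRAP, was at 200, 214, 321 and 288 CPM against 99, 161 and 99.1 (-1.09, SE 0.22, adjusted p = 0.00247). The part of these other cells in the rises of matrix, complement, chemokine and cell cycle genes was not tested.

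**Figure D5:**
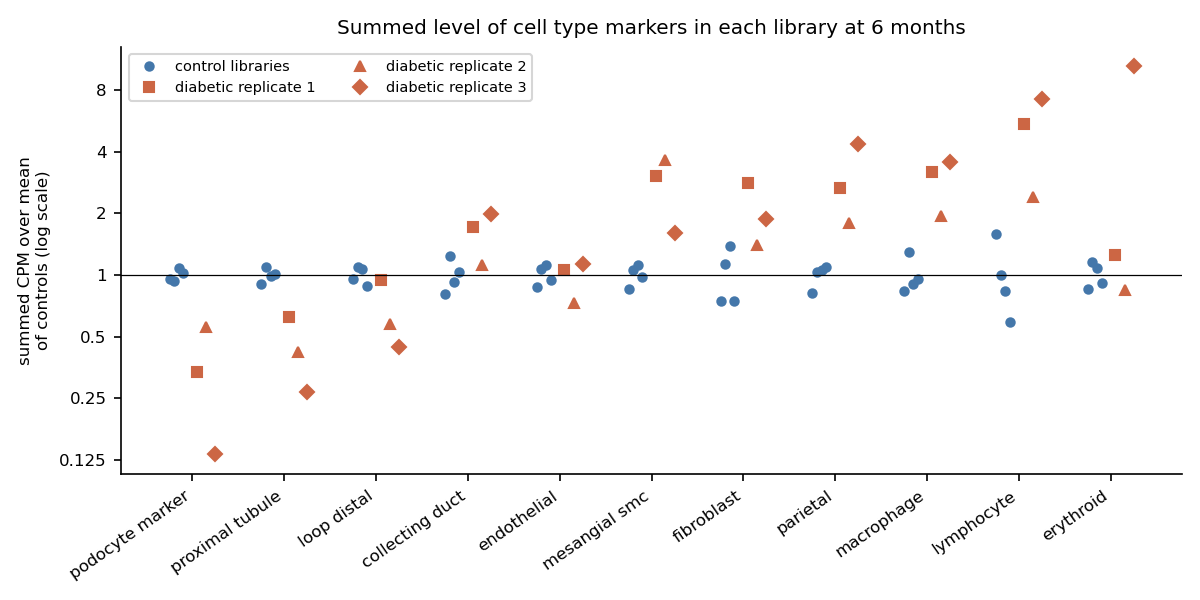
Summed CPM of marker genes of kidney and blood cell types (horizontal axis) in each library, divided by the mean of the 4 controls (vertical axis, log scale); circles are controls and the other symbols diabetic libraries 1 to 3. Podocyte and proximal tubule sums lay below all controls, and macrophage, parietal and mesangial sums above, in all 3 diabetic libraries.

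At 3 months of age, 5 eNOS-/- db/db libraries and 5 eNOS-/- libraries of the same model gave 685 calls (3.99% of genes), against 22.9% at 6 months. Of the 3934 genes called at 6 months, 3283 had a change of the same sign at 3 months and 473 were called at both ages, 472 of them in the same direction. The 6-month change was larger in size than the 3-month change in 3781 of the 3934 genes, which were chosen by their 6-month change, and in 323 of the 473 called at both ages. An edgeR test of the difference between the ages called 0 genes (0%); 3252 genes had an unadjusted p under 0.05, and the lowest adjusted p was 0.0876. In Nphs1 the change was -0.91 at 3 months and -2.38 at 6 months, a difference of -1.48 (SE 0.47, adjusted p = 0.148). In Hspa5 it was -0.76 and -1.86, a difference of -1.11 (SE 0.37, adjusted p = 0.159). By contrast Havcr1 changed by 3.81 already at 3 months (adjusted p = 0.00852), and its difference was 0.53 (SE 1.08, adjusted p = 0.824). The lowest p-values of that test belonged to Kcng2, at -1.01 and -2.93 (difference -1.93, adjusted p = 0.0876), and Fam134c, at -0.53 and 0.52 (difference 1.05, adjusted p = 0.0876). Itga6, an integrin of laminin, was at 49.5 to 55.8 CPM in controls and 187, 105 and 210 in diabetic libraries at 6 months, with changes of 0.15 and 1.67 (difference 1.52, SE 0.28, adjusted p = 0.0885). The result of this test rested on single libraries: without diabetic library 2 of 6 months, 587 genes were called higher and 1324 lower, and without diabetic library 4 of 3 months, 108 and 151.

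The type 1 model of the series, made with streptozotocin, was sampled at 24 weeks in 5 control and 5 diabetic libraries and had 271 calls of 18511 genes (1.46%). In a fit of all 36 TRAP libraries, the difference between the diabetic effect at 6 months in the type 2 model and that at 24 weeks in the type 1 model was called in 81 genes (0.438%), 33 higher and 48 lower. The type 1 libraries were from mice labelled 8 months of age with no eNOS genotype given, so the type of diabetes, age, time with diabetes and eNOS deficiency cannot be told apart. Without diabetic library 3 only 2 were higher and 2 lower, and without control 3 of 6 months 3 and 3. Net1, an activator of the GTPase RhoA, was at 105 to 145 CPM in type 1 controls and 143 to 172 in type 1 diabetic libraries. In the type 2 libraries it went from 102 to 131 CPM to 325, 231 and 407 on the scale of this fit, and the difference was 1.17 (SE 0.20, adjusted p = 0.00921). Arhgap11a, a GTPase-activating protein of dividing cells, had type 1 values of 5.58 to 10.6 and 9.39 to 19.9 CPM, and type 2 values of 2.93 to 4.07 and then 28.7, 46.9 and 47.1 (difference 2.54, SE 0.46, adjusted p = 0.0111). Pmaip1 also stood apart, with overlapping type 1 groups (8.04 to 17.2 and 11 to 28.1 CPM) and a difference of 1.97 (SE 0.41, adjusted p = 0.0286). In the other direction Slc22a19, an organic anion transporter, was at 10.1 to 20 CPM in type 1 controls and 8.75 to 17.3 in type 1 diabetic libraries, and at 12.1 to 32.8 and then 1.33, 1.38 and 0 CPM in the type 2 model (difference -4.22, SE 0.56, adjusted p = 0.000114). Among the lists, 3 ER folding genes were called lower by this test: Hsp90b1 (-1.31), Pdia4 (-1.33) and Hyou1 (-1.10). Nphs1 was not, at -1.83 (adjusted p = 0.0834).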

How the data were processed

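The authors deposited whole-number counts per gene, and FPKM per gene, for each TRAP library, and 100% of the FPKM follow from the counts and gene lengths to within 0.001. Per the submitters' processing notes cutadapt 1.16, STAR, FastQC and featureCounts 1.15.2 were used. The notes list mm9, but the gene coordinates in the files are those of GRCm38, on which 99.981% of 31871 matched genes overlap GENCODE M21. No source used here gives the strand setting of the counting, so reads of genes on opposite strands may be mixed. Per the labels' protocols, RNA was treated with DNase, the NuGEN Ovation chemistry for mouse was used and cDNA was sheared to 200 bp.

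From the counts of 32108 genes, edgeR 4.0.16 (R 4.3.3) fitted 17 TRAP libraries of the type 2 model, diabetic and control at 3 and 6 months, with filterByExpr, TMM factors and a robust quasi-likelihood test, and p-values were adjusted by the Benjamini-Hochberg method at 0.05. The difference from the type 1 model was tested in 36 libraries. CPM values are scaled by TMM. The scripts were tested on simulated data. Alternatives were other scaling factors, filters, a replicate block, other sets of libraries, DESeq2 1.42.0 (values in the closing section) and each library left out. FPKM served only to give levels per gene length, as group means with no test. Promoter letters came from the RefSeq table on GRCm38.p6.

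The gene lists, the comparison and the naming rule were chosen with earlier results of these data known. Named genes were the 8 largest rises and falls among called genes of at least 10 CPM with no overlap of libraries. The same was done among genes 4-fold enriched in TRAP RNA. From each list up to 5 called members per direction with the lowest p were named. In lists of up to 20 genes other members were named where their role is described, and not every member is named. Fixed check genes and the 6 lowest p-values per direction in each test of a difference were added. A few genes are not reported here. No 2 libraries held identical values.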

Additional observations from a re-analysis of the deposited data

Results flagged for a closer look

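In 347 sets of 4 control values, those of the named genes and of the summed lists, 19 (5.476%) had a highest or lowest library whose gap to the nearest other, divided by the whole range, was above Dixon's 95% limit. Chance gives about 1 in 20 (0.05) of such sets. Control 1 was the far library in 9 of them. It was high for the summed complement genes (1009 CPM against 649 to 696.4, gap ratio 0.8683), C3 (0.8908) and Lcn2 (0.8548). It was low for Slc22a7 (12.7 CPM against 29.4 to 32.6, ratio 0.8382), Unc5b (0.9105), Bmp2 (0.8443), Tgfbr3 (0.8618), Stt3b (0.8712) and Ctsl (0.8785). Control 2 was high for Bmp7 (ratio 0.9822), Hspg2 (0.8678), Abca1 (0.8738), Abcg1 (0.8807), Slc2a1 (0.9157) and Cldn10 (0.8748), and low for Anxa11 (0.9554) and Myc (0.8299). Control 3 was low for the summed p53 targets (780.1 CPM against 881.5 to 900.5, ratio 0.8422) and Tgfbi (0.9135). The 3 diabetic libraries are too few for such a look.

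The diabetic effect of 27 named genes differed by edgeR's test between the type 2 model at 6 months and the type 1 model at 24 weeks, at an adjusted p under 0.05. Some of these genes were named because they had the 6 lowest p-values per direction in this same test, so the count of 27 is no evidence in itself. Over all genes the share called was 0.438%, and without diabetic library 3 only 2 genes were called higher and 2 lower. On the log2 scale it was higher in the type 2 model for Mki67 (by 3.78), Slc34a2 (3.49), Vcam1 (3.16), Arhgap11a (2.54), Pmaip1 (1.97), Gnb2l1 (1.97), Rplp0 (1.36), Pdgfa (1.27), Net1 (1.17) and Vat1 (1.02). It was lower for the transporters Slc22a19 (-4.22), Slc22a7 (-3.49), Slc7a12 (-2.62) and Slc39a8 (-1.99). Podocyte-enriched genes with a lower effect were H2-Q6 (-3.24), Astn2 (-2.55) and Kcnj12 (-2.43). The ER and secretory genes Pdia4 (-1.33), Hsp90b1 (-1.31), Lman1 (-1.10), Hyou1 (-1.10) and Rpn1 (-0.75) were lower, as were Cyp51 (-1.42), Lpl (-1.37), Napsa (-1.87) and Serpina1f (-1.73). The noncoding gene Gm16010 (-2.76) was called in the type 1 model, where it went from 7.33 to 13.2 CPM to 23.9 to 65.3 (adjusted p = 0.000302), and not at 6 months (-0.69, adjusted p = 0.192). Gnb2l1, Rplp0 and Mki67 were highest in diabetic library 3, with Gnb2l1 at 1039 CPM there and 204 to 293 in the other diabetic libraries.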

How the results depend on the processing

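The direction and call of 172 of the 283 genes named for 6 months and called there held under every alternative. Diabetic library 3 has the fewest counts, and leaving it out ended 84 named calls, against 46 for library 1 and 16 for library 2. At 6 months, leaving out each library gave 904 to 2376 higher and 1028 to 2974 lower calls. DESeq2 gave 2623 and 2255, and DESeq2's size factors in edgeR 2177 and 1804. Library totals gave 3009 and 1013, and a fit of only the 7 libraries at 6 months 1315 and 1011. No filter on low counts gave 1508 and 1581 of 28343 genes. The replicate block gave 1128 higher and 1447 lower at 6 months, and for the difference from the type 1 model 0 and 3. Whether the numbers pair the samples was not established. The deviations of same-numbered diabetic and control libraries correlated at -0.0222, -0.0775 and -0.013, and so few libraries cannot exclude a shared batch. For the difference between 6 and 3 months, no filter gave 1 and 2 calls, and leaving out each library gave 0 to 587 higher and 0 to 1324 lower. For the difference from the type 1 model (33 and 48), DESeq2's size factors gave 61 higher, upper-quartile factors 50, library totals 87 and 13, no filter 5 and 17, and a mean of at least 1 CPM 79 higher. Leaving out each library gave 2 to 182 higher and 2 to 367 lower. Of 781 alternative values for the medians of the gene lists, 39 moved beyond the spread and 29 changed sign. Most sign changes were in lists with medians near 0, such as lysosome, redox, fatty acid and cholesterol genes. The median of the red blood cell markers also changed sign, from 0.497 to -0.182 without diabetic library 3. The causes of these changes were not tested. Depth limits diabetic library 3 most, and 3 diabetic libraries limit the detection of small changes.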

Other observations

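Several of the largest rises were carried by diabetic library 3. Muc4, a membrane mucin, was at 0.243 to 1.34 CPM in controls and at 15.1, 6.66 and 414 in diabetic libraries (log2 change 7.88, SE 1.58, adjusted p = 0.00392 by edgeR), and Oit1 was at 0 to 0.707 CPM and then 4.42, 2.58 and 239. Without diabetic library 3 the change of Muc4 was 4.09 (adjusted p = 0.0331) and that of Oit1 3.20 (adjusted p = 0.0931). Muc2, an intestinal mucin named after its values were seen, was at 1.54 and 0.43 CPM in diabetic libraries 1 and 2 and at 243 in library 3. Tgfbi, a matrix protein induced by TGF-beta, was at 68.6, 19 and 430 CPM in diabetic libraries and 5.04 to 8.92 in controls, and its change without library 3 was 2.48 (adjusted p = 0.038).

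The calls of 4 other genes, Ugt1a2, Cyp27b1, Ace and Agt, held with each library left out. Ugt1a2, a glucuronosyltransferase whose exons are shared with the other Ugt1a genes, was at 0.104 to 1.68 CPM in controls and 40.2, 30.1 and 10.9 in diabetic libraries (5.64, SE 0.76, adjusted p = 0.00017). Its change was 6.36 at 3 months and 6.00 in the type 1 model. Cyp27b1, which makes active vitamin D, rose from 5.38 to 15.9 CPM to 50.2, 38.8 and 45.1 (2.35, SE 0.40, adjusted p = 0.000786). The angiotensin-converting enzyme gene Ace fell from 44.4 to 79.9 CPM to 24.8, 23.4 and 24.9 (-1.42, SE 0.23, adjusted p = 0.000457) while Agt, encoding angiotensinogen, rose from 11.5 to 14.7 CPM to 35.6, 21.8 and 31.5 (1.20, SE 0.23, adjusted p = 0.00204). Of the 27 genes of renin, prostanoid and steroid signals, 3 were called higher, near the 11.2% of all genes, so no rise of the list is shown. In the same list 7 were called lower, against 11.7% of all genes. The E2F site TTTCCCGC was in 4 of 27 cell cycle genes with a window, 1 of them called (Mcm3), and in 1.236% of all genes, and the WT1 and EGR site GCGGGGGCG was in 0 of 6 podocyte markers and in 3.308% of all genes.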
